A study of Mus musculus with 401 samples.

Results

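Oocytes of 14-month-old mice fed freely were compared with oocytes of 9-month-old mice under calorie restriction (CR). The members were the libraries of the first sample set whose names begin with Old or CR and end with oocyte, 43 of 401 libraries in the series. They comprised 16 old and 27 CR oocytes. Each library held the total RNA of a single oocyte, collected with its surrounding cumulus cells from a fully grown follicle of a B6D2F1 female after hyperovulation, and copied by RamDA-seq, a full-length method that also reads RNA without a poly(A) tail. CR began in adulthood, and CR mice were housed singly and fed a reduced ration once a day. The old oocytes came under 2 mouse labels, Old1_2 with 11 oocytes, which joins 2 mice, and Old3 with 5. The CR oocytes came under 3 labels, CR1 with 3 oocytes, CR2 with 11 and CR3 with 13. Age, diet and sample collection differed together between the groups and cannot be told apart here. Oocytes of 1 mouse share that mouse, so p-values over libraries measure the spread between oocytes more than the spread between animals.

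Mammalian oocytes stay arrested in meiotic prophase from before birth, and sister chromatids are held together through this arrest by cohesin rings loaded in fetal life. A fully grown oocyte has nearly stopped transcription and holds a store of maternal mRNA that supports maturation and the first embryonic divisions. Loss of cohesion and errors in chromosome segregation become more frequent with maternal age. Calorie restriction acts on growth signalling through insulin and mTOR, a pathway that controls ribosome production in many tissues.

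Depth differed between the groups. Total counts ranged from 1192652 to 2650919 (median 2293313) in old oocytes and from 2752043 to 4536690 (median 3578882) in CR oocytes, so each CR library was deeper than each old library. No pair of libraries held identical counts. Oocyte marker genes took 0.897% to 2.70% of counts in old and 1.56% to 2.54% in CR libraries. Old complexes 36 and 41, both of the label Old1_2, lay farthest from their group's mean, and complex 41 was also the shallowest library and had the lowest share of oocyte markers. Levels below are counts scaled to library size (CPM) after TMM scaling, and fold changes are log2 values of CR minus old.

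Of 25408 genes tested, 9840 (38.7%) differed between CR and old oocytes by edgeR's quasi-likelihood test at a false discovery rate of 5%. Of these, 4540 (17.9% of genes tested) were higher in CR and 5300 (20.9%) were lower. Of 12735 protein-coding genes with a mean of at least 1 CPM, 26.3% were higher and 23.5% lower. The median over all genes tested was -0.04. Without the label Old1_2, 4814 of 24332 genes tested were called, 2616 higher and 2198 lower, and without CR3 6461 were called. With counts summed per mouse label, which leaves 5 samples, 1732 genes were called. In the same direction and in every fit that left out 1 label, 3121 genes (12.3%) were called, 1725 (6.79%) higher in CR and 1396 (5.49%) lower. The CPM of old and CR oocytes did not overlap for 87 genes (0.342%), of which 66 were higher and 21 lower in CR.

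The largest increases in CR oocytes were in Pax6, Trim6 and Wls. Pax6, a paired-box transcription factor of eye and brain development (chromosome 2, 105668900 to 105697364 of GRCm38, plus strand), ranged from 0 to 2.25 CPM (median 0.426) in old oocytes and from 9.90 to 26.7 CPM (median 16.7) in CR oocytes. Every CR oocyte was above every old oocyte, and 11 of 16 old oocytes against 27 of 27 CR oocytes had a count. The log2 difference was 4.78 ± 0.27 (SE, adjusted p = 1.42e-18 by edgeR), and it stayed between 4.56 and 4.96 when 1 mouse label was left out. Trim6, a ubiquitin ligase of the tripartite motif family (chromosome 7, 104218793 to 104235152), ranged from 0 to 6.74 CPM (median 1.70) in old and from 8.78 to 69.4 CPM (median 34.2) in CR oocytes. These groups also did not overlap, with a log2 difference of 3.61 ± 0.33 (adjusted p = 6.87e-12). Wls carries Wnt ligands to the cell surface (chromosome 3, 159839672 to 159938664). It ranged from 0 to 23.7 CPM (median 9.46) in old and from 41.3 to 87.8 CPM (median 62.6) in CR oocytes, a log2 difference of 2.53 ± 0.19 (adjusted p = 1.28e-14) without overlap. Per 1000 bases of transcript the CR median level was 1.43 CPM for Pax6 and 7.12 CPM for Wls.

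The other 7 large increases ranged from 1.80 to 2.37 on the log2 scale. They were in Tnc, an extracellular matrix glycoprotein (2.37), Syde1 (2.25), the zinc finger gene Zfp521 (2.17), the sulfotransferase Ust (1.85), Nwd1 (1.85), the adaptor subunit Ap3b2 (1.83) and the gap junction protein Gjb2 (1.80). Syde1 ranged from 0 to 11.6 CPM (median 5.16) in old oocytes and from 12.3 to 35.4 CPM (median 24.5) in CR oocytes, and was the only one of these 7 whose groups did not overlap. For the other 6, between 18 and 25 of 27 CR oocytes were above the highest old oocyte.

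The largest decreases were in Mycl, Cdo1, Myocd, Rbm47 and Crabp2. Cdo1 encodes cysteine dioxygenase, which breaks down cysteine (chromosome 18). It ranged from 78.2 to 377 CPM (median 178) in old and from 9.50 to 79.9 CPM (median 23.6) in CR oocytes. Of the CR oocytes, 26 of 27 lay below the lowest old oocyte, and the log2 difference was -2.68 ± 0.22 (adjusted p = 2.82e-13). Crabp2, a carrier of retinoic acid (chromosome 3, 87948666 to 87953376), ranged from 8.38 to 43.7 CPM (median 29.8) in old and from 1.57 to 12.6 CPM (median 4.62) in CR oocytes, a log2 difference of -2.46 ± 0.20 (adjusted p = 9.33e-14). Rbm47, an RNA-binding protein (chromosome 5, 66016549 to 66173118), ranged from 12.6 to 46.5 CPM (median 24.8) in old and from 0 to 13 CPM (median 3.48) in CR oocytes, a log2 difference of -2.56 ± 0.26 (adjusted p = 5.94e-11). These 3 genes changed little with the mouse label left out, Crabp2 between -2.58 and -2.40, Rbm47 between -2.79 and -2.26 and Cdo1 between -3.16 and -2.26.

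The MYC family gene Mycl and the transcriptional coactivator Myocd rested more on Old1_2. Mycl ranged from 0.389 to 181 CPM (median 12.2) in old and from 0.288 to 12.7 CPM (median 2.70) in CR oocytes, and its log2 difference of -3.02 ± 0.43 (adjusted p = 1.85e-07) was -1.63 without that label. Myocd ranged from 8.09 to 329 CPM (median 36.4) in old and from 4.75 to 31.1 CPM (median 9.90) in CR oocytes, and -2.60 ± 0.30 (adjusted p = 2.00e-09) became -0.97. The groups overlapped for both genes. The remaining 5 of the 10 largest decreases were the ribosomal protein genes Rpl37 (-2.04) and Rpl39 (-1.98), the translational regulator Msi2 (-1.89), and Rn7s6 (-1.89) and Rn7s2 (-1.88), copies of the RNA of the signal recognition particle. In the last 2 and in Rpl39 100% of the counts above 0 were not whole, as reads were shared between near-identical copies, so their levels are uncertain.

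**Figure D1:**
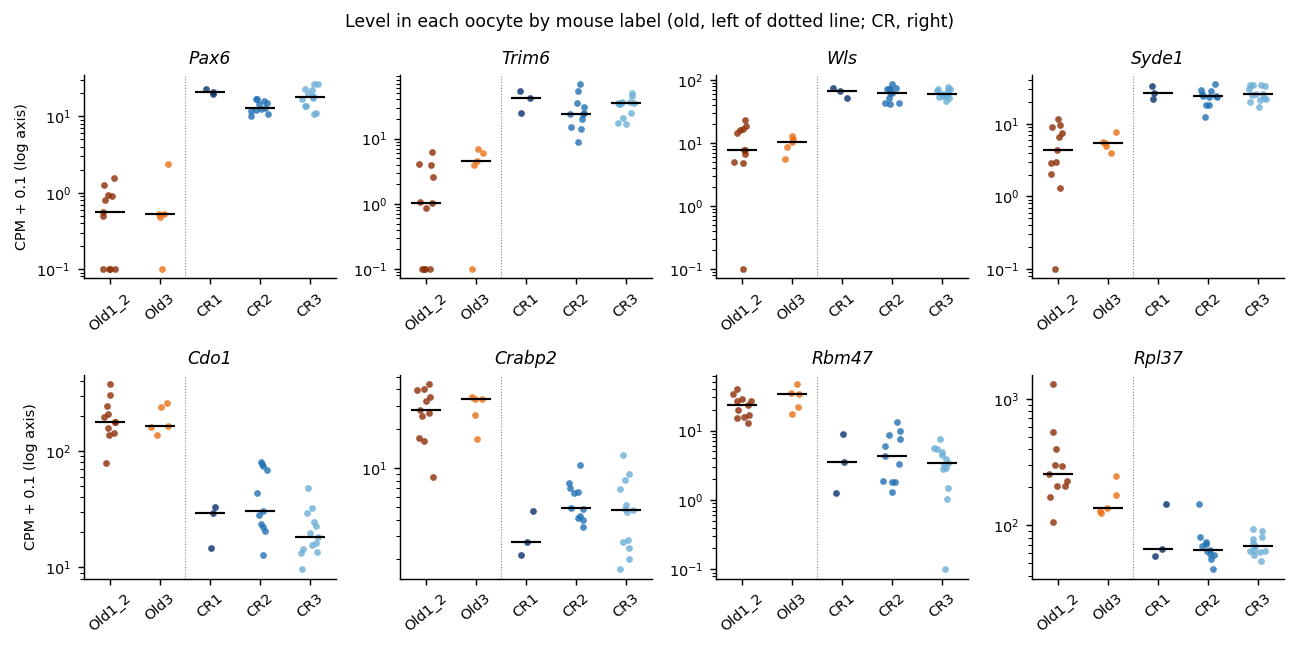
CPM plus 0.1 on a log axis for 8 of the 20 genes with the largest differences, with 1 point per oocyte, 1 column per mouse label and a bar at the label's median. Pax6, Trim6, Wls and Syde1 were higher in each CR oocyte than in any old oocyte, and Cdo1, Crabp2, Rbm47 and Rpl37 were lower under each CR label than under each old label by their medians.

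Genes of cytoplasmic ribosomal proteins were lower in CR oocytes as a group. Of 83 tested, 74 fell, none rose and 9 did not pass, with a median of -1.04 beside -0.04 over all genes. Rps16, of the small subunit, ranged from 43.6 to 210 CPM (median 79.6) in old and from 17.1 to 60.1 CPM (median 26) in CR oocytes. Of CR oocytes, 26 of 27 were below the lowest old oocyte, and Rps16 fell by 1.72 ± 0.16 on the log2 scale (adjusted p = 5.59e-12). Rplp0, of the ribosomal stalk, fell by 1.12 ± 0.10 (adjusted p = 5.12e-12). Without Old1_2, 44 of the 83 were lower and 2 higher, with a median of -0.41. Sums per mouse label gave 38 lower and none higher. The share of all counts in these genes was 0.403% to 2.00% (median 0.610%) in old and 0.285% to 0.609% (median 0.325%) in CR libraries. Its means of 0.779% ± 0.475 (SD, n = 16) and 0.348% ± 0.074 (SD, n = 27) differed in a two-sided permutation test over libraries (p = 2e-05, the smallest 100000 resamples can give). Means per mouse label did not overlap, 0.481% and 0.915% in old and 0.337% to 0.374% in CR, and the exact test over the 5 labels gave p = 0.1, the smallest it allows.

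Many mRNAs of ribosomal proteins begin with a C followed by a run of pyrimidines, the terminal tract through which mTOR signalling controls their translation. RefSeq promoters (GRCm38.p6) matched 63 of the 84 listed genes. Of these, 14 (22.2%) have at their annotated start a C followed by at least 4 more C or T. The same held for 673 of 27025 promoters of all genes (2.49%) and 0 of 71 of mitochondrial ribosomal protein genes. A tract a few bases from the annotated start was not counted, so these are not the shares of genes that have one. As examples of that start, 4 of the 14 are shown, picked for their large decreases, so their values do not stand for the 14. The sequences run from 10 bases before the start to 20 bases into the transcript, 5′ to 3′, with the run in capitals. All lie on the plus strand, at chr7:141447641-141447670, chr11:114668570-114668599, chr19:6057937-6057966 and chr7:4792955-4792984 in the order given, and their log2 differences were -1.45, -1.40, -1.33 and -1.23.
Rplp2: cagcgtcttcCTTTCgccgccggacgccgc
Rpl38: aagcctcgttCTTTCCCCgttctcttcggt
Fau: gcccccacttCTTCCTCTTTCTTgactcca
Rpl28: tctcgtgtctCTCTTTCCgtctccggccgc

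Core histone genes showed the lowest median of the 24 lists, -1.49, with 56 of 61 lower in CR, 1 higher and 4 not called. Replication-dependent histone mRNAs lack a poly(A) tail and end in a stem-loop. The motif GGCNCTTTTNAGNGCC, with N any base, was found in GENCODE vM21 transcripts of 38 of the 61 genes and in 9 of 141698 other transcripts (0.00635%). The element is shown for 3 genes called lower in every fit that left out a mouse label, picked for their large decreases. Capitals mark the stem-loop motif, with 7 bases on either side. The 3 elements lie at chr13:23531451-23531480 (plus strand), chr3:96220411-96220440 (minus strand) and chr3:96246025-96246054 (plus strand) of GRCm38. Their genes had log2 differences of -1.79, -1.78 and -1.75.
Hist1h4h: aaccaaaGGCCCTTTTCAGGGCCgcccaca
Hist2h2ac: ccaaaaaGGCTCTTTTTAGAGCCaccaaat
Hist2h2aa1: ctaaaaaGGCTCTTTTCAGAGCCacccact

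Hist2h2aa1 ranged from 5.11 to 41.9 CPM (median 11.2) in old and from 2.30 to 8.29 CPM (median 3.79) in CR oocytes, so that 22 of 27 CR oocytes were below every old oocyte. Its near copy Hist2h2aa2 shares reads with it, and the split between them is uncertain. The single increase, Hist2h4, was 0.934 at a median of 0.839 CPM in old and 2.04 CPM in CR oocytes. The fall of the core histones depended on Old1_2. Without it 10 were lower and 1 higher, with a median of -0.70. Sums per mouse label gave 4 core histones lower and none higher. Variant and linker histones were lower for 8 of 12 and higher for none (median -0.58), and 6 of the 8 were called in each fit that left out a label. H2afv fell by 1.59 ± 0.15 (adjusted p = 2.44e-11) and H2afx, the variant phosphorylated at DNA breaks, by 1.11 ± 0.12 (adjusted p = 8.36e-10). Of 17 noncoding RNAs tested, 11 were lower and none higher (median -1.33), and 2 were lower and 3 higher without Old1_2.

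**Figure D2:**
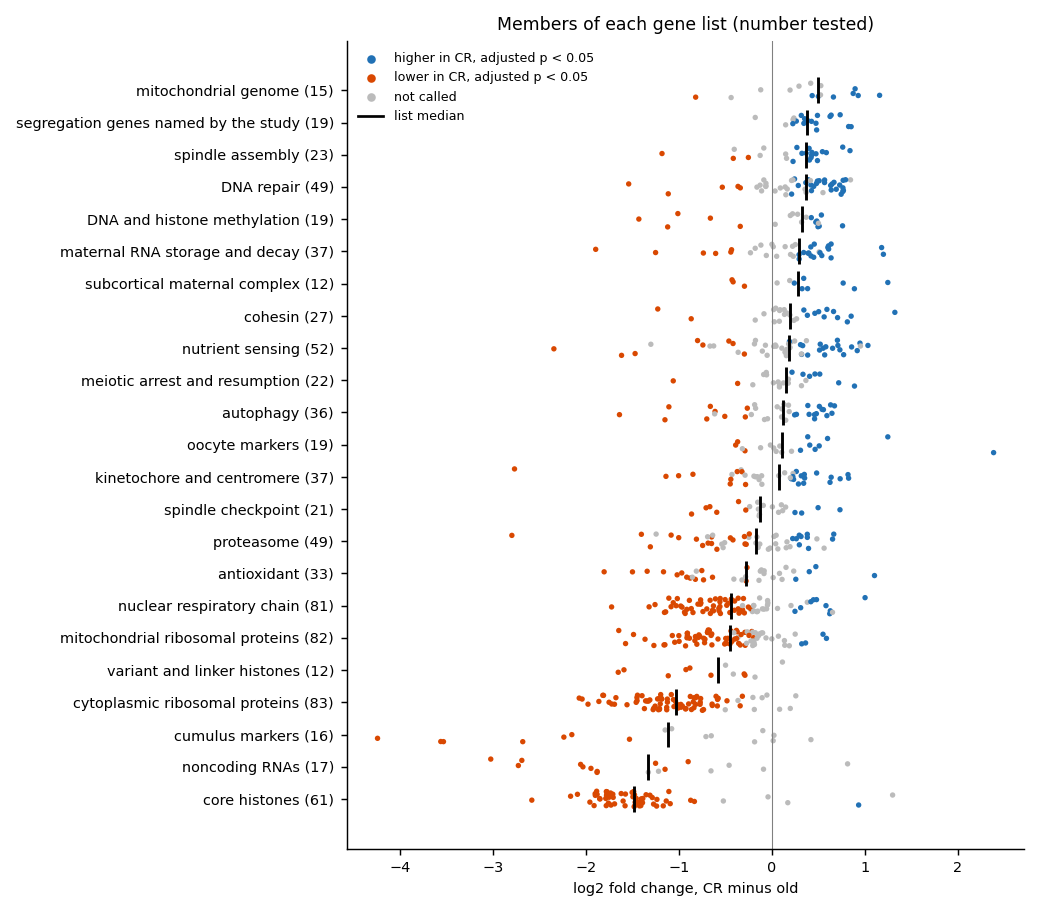
Log2 fold change (CR minus old) of each tested member of 23 gene lists, with 1 point per gene, coloured by the call at an adjusted p of 0.05, and a bar at each list's median. Core histones, noncoding RNAs, cumulus markers and cytoplasmic ribosomal proteins have medians from -1.49 to -1.04, and 13 lists have medians above 0, up to 0.50.

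With all 43 libraries, nuclear genes for mitochondrial proteins were mostly lower in CR oocytes, and mRNAs from the mitochondrial genome were not. Of 82 mitochondrial ribosomal protein genes, 55 fell and 4 rose (median -0.45), and of 81 nuclear genes of the respiratory chain, 53 fell and 9 rose (median -0.44). Mrpl24 fell by 0.89 ± 0.09 (adjusted p = 4.22e-11) and Mrpl35 by 0.93 ± 0.09 (adjusted p = 8.13e-11). Within the respiratory chain, 22 of 37 genes of complex I, 10 of 14 of complexes II and III, 9 of 15 of complex IV and 12 of 15 of ATP synthase were lower. The ATP synthase subunit gene Atp5j2 ranged from 24.4 to 132 CPM (median 47.7) in old and from 11.7 to 26 CPM (median 15.9) in CR oocytes, a log2 difference of -1.72 ± 0.14 (adjusted p = 2.15e-13). Among the increases was the complex I core subunit Ndufs1, 0.62 ± 0.13 (adjusted p = 0.000144). Without Old1_2, 29 mitochondrial ribosomal genes were lower and 5 higher (median -0.28), and 23 respiratory chain genes were lower and 8 higher (median -0.18). With the length and GC trend also removed, 19 respiratory chain genes were lower and 8 higher (median -0.08). Sums per mouse label gave 22 mitochondrial ribosomal and 19 respiratory chain genes lower and none higher.

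Of 13 mRNAs of the mitochondrial genome, 7 were higher in CR and none lower (median 0.52). Without Old1_2, 12 were higher (median 1.49), and without Old3 4 (median 0.21). mt-Co1, of complex IV, ranged from 206 to 1556 CPM (median 697) in old and from 906 to 2386 CPM (median 1329) in CR oocytes, a log2 difference of 0.88 ± 0.16 (adjusted p = 1.94e-05). mt-Co2 rose by 1.16 ± 0.19 (adjusted p = 4.02e-06). The large ribosomal RNA mt-Rnr2 was lower, by 0.82 ± 0.27 (adjusted p = 0.0132), but was 0.50 higher without Old1_2 (adjusted p = 0.238). As a share of all counts the mitochondrial genome took 0.367% to 6.75% (median 0.987%) in old and 0.670% to 3.47% (median 0.958%) in CR libraries. The mean share was 0.373 percentage points lower in CR with p = 0.331 (two-sided permutation test over libraries). Without Old1_2 it was 0.464 points higher (p = 0.00018).

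**Figure D3:**
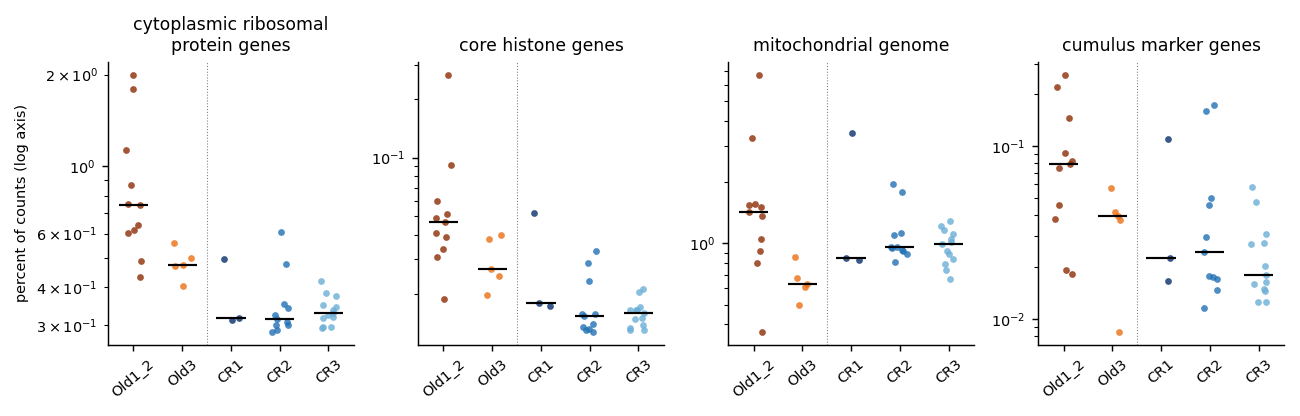
Percent of counts in 4 gene groups, on log axes, with 1 point per oocyte by mouse label and a bar at each label's median. Ribosomal protein and core histone shares are highest under Old1_2 and lower under Old3 and the CR labels, while mitochondrial shares under Old3 (0.496% to 0.857%) lie below most of those under Old1_2 and CR.

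Cohesin genes were higher more often than lower in CR oocytes, 11 (40.7%) against 2 (7.41%) of 27 tested (median 0.19). All genes gave 17.9% and 20.9%, and genes of 4001 to 8000 bases with a mean of at least 1 CPM 30.2% and 16.9%. The median length of the cohesin list was 5733 bases. Of the increases, 7 were called in each fit that left out a label. Among the ring subunits, Stag1, which binds the ring to chromatin (chromosome 9, 100597798 to 100959375), ranged from 16.1 to 57.1 CPM (median 30.9) in old and from 41.8 to 89.0 CPM (median 59.4) in CR oocytes. Of CR oocytes, 17 of 27 were above the highest old oocyte, and the log2 difference was 0.85 ± 0.11 (adjusted p = 2.18e-08). The meiotic subunits Smc1b (0.71 ± 0.18, adjusted p = 0.0013) and Stag3 (1.32 ± 0.29, adjusted p = 0.000218) rose, as did the kleisin Rad21 (0.34 ± 0.08, adjusted p = 0.000368). Smc1a, the subunit that Smc1b replaces in meiosis, fell by 0.87 ± 0.11 (adjusted p = 1.03e-08), from 30.9 to 75.9 CPM (median 51.6) in old to 18.8 to 56.7 CPM (median 29.2) in CR oocytes. Smc3 (-0.08), Rad21l (0.08) and Stag2 (0.16) did not pass. Rec8, the meiotic kleisin, had no count in any of the 43 libraries and was not tested, which says only that the files list none.

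Of the cohesin loading and release factors, the loader Nipbl (0.50), the release factor Wapl (0.56 ± 0.09, adjusted p = 5.05e-06) and Pds5a (0.59) rose. Mau2 (0.14), Pds5b (0.08), Cdca5 (0.03), Esco1 (0.27), Esco2 (-0.18) and Hdac8 (0.04) did not pass. Among the genes that protect or cleave cohesin, the shugoshin Sgo1 ranged from 40.5 to 89.4 CPM (median 53.8) in old and from 57.5 to 105 CPM (median 73.0) in CR oocytes, and rose by 0.38 ± 0.09 (adjusted p = 0.000384). The phosphatase subunit Ppp2ca (0.46 ± 0.06, adjusted p = 7.33e-08), separase Espl1 (0.81 ± 0.22, adjusted p = 0.00293) and its inhibitor securin, Pttg1 (0.66 ± 0.21, adjusted p = 0.00846), rose as well. Espl1 and Pttg1 were not called in every fit that left out a label. Ppp2cb, the other catalytic subunit, fell by 1.23 ± 0.41 (adjusted p = 0.0142), and was -0.01 without Old1_2. Sgo2a (0.02), Sgo2b (0.19), Meikin (0.24), Ppp2r1a (0.09) and Ppp2r5c (0.13) did not pass. With the length and GC trend removed 10 cohesin genes were higher and 5 lower, and with Old1_2 also left out 4 were higher and 2 lower. With counts summed per mouse label 2 were higher and none lower.

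Of 37 kinetochore and centromere genes, 15 (40.5%) rose and 9 (24.3%) fell (median 0.07), beside 17.9% and 20.9% of all genes. Without Old1_2, 13 were higher and 2 lower (median 0.21), and without CR3 8 and 4. Sums per mouse label gave 2 higher and 2 lower. The scaffold Knl1 rose by 0.73 ± 0.11 (adjusted p = 4.60e-07) and Cenph by 0.63 ± 0.10 (adjusted p = 2.29e-06), while the small centromere proteins Cenpx (-1.14 ± 0.11, adjusted p = 1.13e-11) and Cenpm (-0.85 ± 0.09, adjusted p = 2.15e-10) fell. Of 21 genes of the spindle checkpoint and its kinases, 4 (19.05%) rose and 6 (28.57%) fell (median -0.13). All genes gave 17.9% and 20.9%, and protein-coding genes with a mean of at least 1 CPM 26.3% and 23.5%. Without Old1_2, 2 of the 21 checkpoint genes were higher and 9 lower, and 1 and 3 with counts summed per mouse label. Zwilch, which recruits dynein to kinetochores, rose by 0.73 ± 0.08 (adjusted p = 3.91e-10), and the Aurora kinases Aurkb (-0.86 ± 0.14, adjusted p = 4.46e-06) and Aurkc (-0.67 ± 0.10, adjusted p = 2.34e-07) fell. Aurkc, the kinase of the meiotic passenger complex, ranged from 134 to 317 CPM (median 233) in old and from 91.4 to 197 CPM (median 141) in CR oocytes.

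Of 23 spindle assembly genes, 15 rose and 3 fell (median 0.37), among them the midzone crosslinker Prc1 (0.59 ± 0.08, adjusted p = 1.05e-07) and its partner Kif23 (0.42 ± 0.08, adjusted p = 2.26e-05). Of these 23, 6 were higher without Old1_2, 10 with the length and GC trend removed and 1 with both changes. Of the 19 chromosome segregation genes that the study lists as raised under CR, 15 were higher and none lower (median 0.38). Sums per mouse label gave 3 higher and none lower. That list was chosen on these CR libraries and is not independent evidence of its direction. Of 22 genes of meiotic arrest and resumption, 7 (31.8%) rose and 2 (9.09%) fell (median 0.15). Genes of 4001 to 8000 bases with a mean of at least 1 CPM gave 30.2% and 16.9%. The median length of the list was 4126 bases. Leaving out Old1_2 gave 5 higher and 1 lower, and with the length and GC trend also removed 1 and 2 (median -0.05). None was called with counts summed per mouse label. The phosphodiesterase Pde3a, which lowers cyclic AMP, rose by 0.89 ± 0.13 (adjusted p = 2.85e-07), the kinase regulatory subunit Prkar2a by 0.72 ± 0.11 (adjusted p = 1.55e-06), and the kinase Mos, which keeps eggs at metaphase II, fell by 0.37 ± 0.07 (adjusted p = 8.67e-05).

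Of 49 DNA repair genes, 25 rose and 5 fell in CR oocytes (median 0.37), with 18 of 27 genes of double-strand break repair among the increases. Without Old1_2, 15 were higher and 5 lower (median 0.22), 11 of the increases in double-strand break repair, and with the length and GC trend also removed 6 were higher and 7 lower (median 0.06). Lig4, the ligase of end joining, ranged from 47.5 to 164 CPM (median 117) in old and from 111 to 253 CPM (median 190) in CR oocytes, a log2 difference of 0.75 ± 0.11 (adjusted p = 2.06e-07). The 2 Ku subunits went in opposite directions, Xrcc5 higher by 0.43 ± 0.07 (adjusted p = 1.29e-06) and Xrcc6 lower by 0.36 ± 0.08 (adjusted p = 0.000158). Of 37 genes that store, translate or degrade maternal mRNA, 18 (48.6%) rose and 6 (16.2%) fell (median 0.29). Sums per mouse label gave 6 higher and 2 lower. With the length and GC trend removed 12 were higher and 8 lower (median 0.13), and with Old1_2 also left out 8 and 7 (median 0.01). The exonuclease Xrn1 ranged from 27.8 to 67.2 CPM (median 42.8) in old and from 56.2 to 120 CPM (median 103) in CR oocytes, with 26 of 27 CR oocytes above every old oocyte and a log2 difference of 1.2 ± 0.09 (adjusted p = 8.28e-14). The helicase Ythdc2 ranged from 7.67 to 51.1 CPM (median 29.955) in old and from 56.7 to 94.6 CPM (median 70.8) in CR oocytes without overlap, a log2 difference of 1.18 ± 0.13 (adjusted p = 4.57e-10). Zar1l fell by 0.74 ± 0.08 (adjusted p = 7.93e-10).

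Nutrient sensing genes changed in both directions, 19 of 52 (36.5%) higher and 8 (15.4%) lower (median 0.18), and 13 and 3 without Old1_2. Sums per mouse label gave 6 higher and 1 lower. All genes gave 17.9% higher and 20.9% lower. Of 16 genes of insulin, PI3K and FOXO signalling, 9 rose and 1 fell, and of 26 genes of mTOR and AMPK signalling 8 rose and 3 fell. With the length and GC trend removed, 5 and 2 of the insulin group and 9 and 4 of the mTOR group were higher and lower. The whole list then gave 16 higher and 10 lower (median 0.05), or 9 and 6 (median 0.03) with Old1_2 also left out. Of 10 sirtuin genes and their partners, 2 rose and 4 fell. The mitochondrial sirtuins Sirt5 and Sirt4 moved apart, from medians of 12 and 12.3 CPM in old oocytes to 23 and 4.12 CPM in CR oocytes. Sirt5 rose by 0.95 ± 0.15 (adjusted p = 1.84e-06) and Sirt4 fell by 1.47 ± 0.17 (adjusted p = 3.21e-09), and both were called whichever mouse label was left out. The nuclear sirtuin Sirt6 fell by 0.46 ± 0.09 (adjusted p = 4.75e-05).

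Of 36 autophagy genes, 14 (38.9%) rose and 9 (25%) fell (median 0.12), beside 17.9% and 20.9% of all genes. None was called with counts summed per mouse label. Pik3c3, the lipid kinase that starts autophagosomes, was higher by 0.51 ± 0.08 (adjusted p = 1.23e-06). The ATG8 family gene Gabarapl2 was lower by 0.61 ± 0.11 (adjusted p = 2.49e-05). Without Old1_2, 5 autophagy genes were higher and 2 lower, without CR3 9 and 3, and with the length and GC trend removed 9 and 10 (median -0.07). Of 49 proteasome genes, 10 (20.4%) rose and 17 (34.7%) fell (median -0.17), beside 17.9% and 20.9% of all genes. Without Old1_2, 5 proteasome genes were higher and 11 lower (median 0.0091), and 0 and 8 with counts summed per mouse label. The core subunit Psma7 fell by 1.0 ± 0.09 (adjusted p = 9.77e-13) and the assembly chaperone Psmg3 by 1.40 ± 0.12 (adjusted p = 2.08e-12), and the regulatory subunit Psmd1 rose by 0.65 ± 0.09 (adjusted p = 9.36e-08). Of 33 antioxidant genes, 4 (12.1%) rose and 14 (42.4%) fell (median -0.28), or 1 and 3 with counts summed per mouse label. The mitochondrial peroxiredoxin Prdx3 ranged from 50.8 to 139 CPM (median 72.0) in old and from 29.9 to 55.8 CPM (median 41.9) in CR oocytes and fell by 0.82 ± 0.10 (adjusted p = 2.25e-09). Heme oxygenase, Hmox1, rose by 1.10 ± 0.26 (adjusted p = 0.000494) at medians of 3.25 and 8.59 CPM. Without Old1_2, 4 antioxidant genes were lower and 4 higher (median 0.05), and without CR3 6 and 4.

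The oocyte identity of both groups was plain from their markers. Gdf9, a growth factor secreted by oocytes, was at 1003 to 5804 CPM (median 3741) in old and 2743 to 5501 CPM (median 4741) in CR oocytes, and all 19 oocyte markers had counts in both groups. Of these markers, 8 (42.1%) were higher and 3 (15.8%) lower in CR (median 0.11), beside 17.9% and 20.9% of all genes. Leaving out Old1_2 gave 2 higher and 3 lower. Of 12 genes of the subcortical maternal complex, which embryos need for cleavage, 7 (58.3%) rose and 3 (25%) fell (median 0.28). None was called with counts summed per mouse label, and none rose in every fit that left out a label. Nlrp5 rose by 1.25 ± 0.24 (adjusted p = 3.94e-05), and Ooep (-0.43 ± 0.11, adjusted p = 0.00149) and Zbed3 (-0.30 ± 0.07, adjusted p = 0.00111) fell in each such fit. Of 19 genes that write, erase or protect DNA and histone methylation, 7 (36.8%) rose and 5 (26.3%) fell (median 0.32). These were 3 and 1 without Old1_2 (median -0.0087), 7 and 0 without CR3, and 1 and 0 with counts summed per mouse label. The helicase Hells was higher by 0.47 ± 0.08 (adjusted p = 6.99e-06). The maternal factor Dppa3 rose by 0.51 ± 0.13 (adjusted p = 0.00133) and the transcription factor subunit Nfya by 0.41 ± 0.09 (adjusted p = 0.000374), the latter not without Old1_2. Pou5f1 was -0.12 and did not pass (adjusted p = 0.307).

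Cumulus marker RNA moved with the groups, through Old1_2. The summed level of 16 cumulus and granulosa markers was 86.7 to 2340 CPM (median 493) in old and 121 to 1572 CPM (median 217) in CR oocytes, with medians of 718 CPM under Old1_2 and 400 CPM under Old3. Of these markers 7 fell and none rose in CR (median -1.11), and without Old1_2 none fell and 1 rose. No cumulus marker was at 0 in all old or all CR oocytes. Amh, made by granulosa cells, ranged from 0 to 457 CPM (median 9.64) in old and from 0 to 15.1 CPM (median 1.82) in CR oocytes and fell by 3.56 ± 0.59 (adjusted p = 4.26e-06), against 0.19 without Old1_2. Of 1011 genes with a log2 ratio of at least 5 between cumulus and oocyte libraries, 433 were called lower in CR oocytes and 13 higher. Over all genes tested, 20.9% were lower and 17.9% higher. The 433 were 8.17% of all decreases. Without Old1_2, 11 of the 1011 were called lower, and the median of the 1011 went from -1.16 to 0.08. Of 14 markers of theca, luteal, blood, endothelial and stromal cells, 11 were tested, 2 rose and 5 fell, and without Old1_2 1 rose and none fell. The median of the 5 theca and luteal markers was -4.26, and 0.66 without Old1_2. The summed level of the 14 was 49.7 to 507 CPM in old and 82.4 to 138 CPM in CR oocytes. Adgre1, of macrophages, had no count in old oocytes, and Hba-a1, Hbb-bs, Ptprc, Adgre1 and Col1a1 had none under Old3. With the cumulus marker level as a covariate, 65 cytoplasmic ribosomal protein genes, 49 core histones and 47 mitochondrial ribosomal protein genes were lower.

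Fold changes followed gene length. Among genes with a mean of at least 1 CPM, the median was -0.47 for the 882 genes of up to 500 bases, -0.33 for 501 to 1000, -0.24 for 1001 to 2000, -0.06 for 2001 to 4000, 0.11 for 4001 to 8000 and 0.24 for the 2278 genes over 8000 bases. In the shortest class 11.2% of genes were higher and 48.4% lower in CR, and in the longest class 42.1% were higher and 12.2% lower. Without Old1_2 the medians ran from -0.19 to 0.24. Members of the core histone list had a median length of 528 bases. The mitochondrial genome list, at a median of 955 bases, went against the trend, with the highest median of the lists (0.50). With the trend of length and GC content removed, 75 of 83 cytoplasmic ribosomal protein genes, 59 of 82 mitochondrial ribosomal protein genes and 55 of 61 core histones were still lower. Kinetochore genes then had more decreases than increases (9 higher and 15 lower), and 18 DNA repair genes were higher and 9 lower. With Old1_2 also left out, 29 cytoplasmic ribosomal, 31 mitochondrial ribosomal and 6 core histone genes were lower, and 3, 2 and 1 higher. Their medians were -0.31, -0.33 and -0.49. The part of RNA quality in the trend was not tested.

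**Figure D4:**
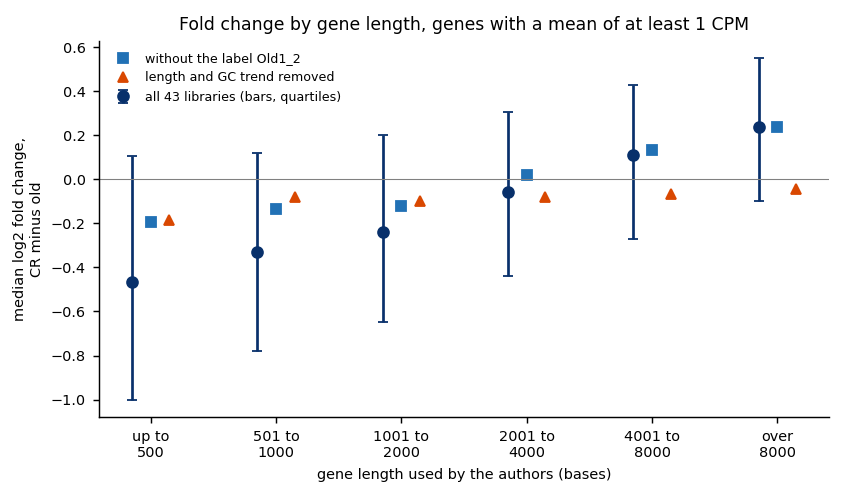
Median log2 fold change (CR minus old) of genes in 6 classes of length, for all 43 libraries with bars from the lower to the upper quartile, without the label Old1_2, and with the trend of length and GC content removed. The median climbs from -0.47 to 0.24 over all libraries, and with the trend removed it stays between -0.18 and -0.05.

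CR oocytes were more alike than old oocytes. The distance of each library from the mean of the others in its group, over 9062 genes with a mean of at least 10 CPM, was 0.405 to 1.45 (median 0.499) log2 units in old and 0.245 to 0.720 (median 0.325) in CR oocytes. The mean distance was 0.266 lower in CR (two-sided permutation test over libraries, p = 2e-05, the smallest the resamples can give). Means per label were 0.663 and 0.493 in old and 0.312 to 0.430 in CR, and the exact test over the 5 labels gave p = 0.1, the smallest it allows. Without Old1_2 the difference was 0.0715 lower in CR and did not pass (p = 0.206). Drawn down to the depth of the shallowest library, libraries detected 16014 to 19566 genes (median 17550) in old and 16759 to 19114 (median 17445) in CR oocytes, and the means differed by less than the spread between libraries (p = 0.481, two-sided permutation test).

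Oocytes of 9-month-old mice fed freely, called middle, show how each group stood to a group of the age of the CR mice. Their total counts ranged from 1903858 to 2624876 (median 2332126), so each CR library was also deeper than each middle library. Diet, depth and mouse labels differed together between CR and middle oocytes and cannot be told apart here. CR against 14 middle oocytes gave 7583 of 25276 genes (30%), and old against middle gave 0 of 23347 (0%) by edgeR, with 4462 at an unadjusted p under 0.05. Both comparisons share libraries with the one above, so their values are set side by side only. All 20 genes with the largest differences were called in the same direction in CR against middle. Pax6 was 4.79 in CR against middle and -0.03 in old against middle, Rbm47 -2.62 and -0.09, Gjb2 1.90 and 0.09, and Crabp2 -2.06 and 0.38. For these 4 genes the old and middle oocytes lay close together. Rpl37 was -0.91 in CR against middle and 1.16 in old against middle, and Myocd -1.09 and 1.53. Cytoplasmic ribosomal protein genes had medians of -0.33 in CR against middle (47 lower and 5 higher of 83) and 0.73 in old against middle, and core histones -0.61 (25 lower and 1 higher of 61) and 0.97. Mitochondrial ribosomal protein genes had -0.27 and 0.21, and cohesin genes 0.34 (15 higher and 2 lower of 27) and 0.08.

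A second sample set held 16 oocytes at 9 months and 16 at 14 months, all fed freely, and shares no library with the first. There 3 of 22119 genes (0.0136%) differed between 14 and 9 months. One was Ooep, 0.24 ± 0.04 lower at 14 months on the log2 scale (adjusted p = 0.0223), and lower in CR than in old oocytes of the first set. None of the 20 genes with the largest differences was called there, and their values ranged from -0.77 (Pax6) to 0.49 (Gjb2). Of the genes called lower in CR in each fit that left out a label, 1388 were tested in the second set, with a median of -0.05 for 14 minus 9 months, and of those called higher, 1721 with a median of 0.04, beside 0.01 over all genes tested in both sets. At 14 months 70.0% of the former, 32.02% of the latter and 47.4% of all genes were lower. In the second set core histones (-0.15) and cytoplasmic ribosomal protein genes (-0.07) had medians below 0 at 14 against 9 months, where the first set gave 0.97 and 0.73 for old against middle.

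**Figure D5:**
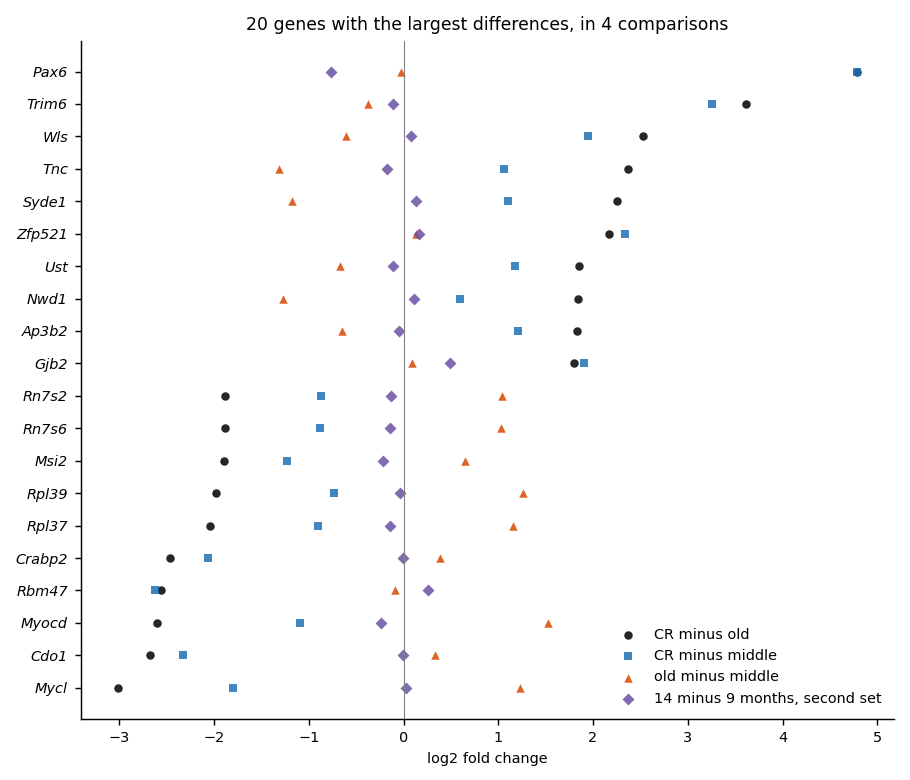
Log2 fold change of the 20 genes with the largest differences between CR and old oocytes (black circles), beside CR minus middle (blue squares), old minus middle (orange triangles) and 14 minus 9 months in the second set (purple diamonds). CR minus middle has the sign of CR minus old for all 20, and the second set stays between -0.77 and 0.49.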

How the data were processed

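The authors mapped RamDA-seq reads to GRCm38 (HISAT2 2.0.5, per the labels) with genes of GENCODE vM15 counted by featureCounts 1.5.1, sharing multi-mapped reads, so the deposited values are expected counts. Of nonzero values in the 43 libraries 37.6% were not whole, and they were rounded. RPKM values deposited by the authors served to derive gene lengths alone. Counting by strand is not given in the sources used here, so overlapping and antisense genes cannot be told apart. Symbols and coordinates came from GENCODE vM21. Reads carry no molecular identifiers, so errors cover counting error and spread between libraries. The SE of a fold change is the size of the log2 difference divided by the square root of edgeR's F statistic.

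Genes detected in 5 or more libraries were tested with edgeR 4.0.16 (TMM, quasi-likelihood F test, Benjamini-Hochberg, false discovery rate 5%). That test was first run on simulated counts that held no effect of mouse label or gene length, so it was not checked against either. Library measures were compared by permutation of libraries (100000 resamples) and exactly over mouse labels. One middle library with almost no oocyte marker RNA was left out. The 24 gene lists and the members were chosen with earlier results of these data known. Genes named are the 10 largest increases and decreases among genes with a mean of at least 10 CPM that were called without each label (unnamed models and pseudogenes passed over), in each list the called members with the smallest p in each direction, all cohesin genes, cell type markers, and Dppa3, Pou5f1 and Nfya. Others are named where they carry a shown sequence. Alternatives were DESeq2 1.42.0, other filters, sums per label, limma 3.58.1 with the label as a random effect, all oocyte groups, each label left out, CR counts thinned, a length and GC offset and a cumulus covariate.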

Additional observations from a re-analysis of the deposited data

How the results depend on the processing

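The 9840 calls (4540 higher in CR, 5300 lower) became 1732 (831 and 901) with counts summed per mouse label, and 2609 (806 and 1803) when a fold of 1.5 was required. Leaving out 1 label gave 4814 to 10049 calls, 2616 to 4343 higher and 2198 to 5739 lower, with all 3 lowest counts without Old1_2. With the length and GC trend removed and Old1_2 left out, an alternative chosen after seeing the data, there were 3968 (1772 and 2196). Without old complexes 36 and 41, also chosen after seeing the data, there were 8937. DESeq2, both other filters, the random effect, the joint fit, thinning, the length and GC offset, the cumulus covariate and leaving out mitochondrial genes kept each count within 1.5 times, and the cause of the other changes was not tested.

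With 1 label left out, the CR minus old difference ranged from -0.753 to 0.464 percentage points for the share of counts in mitochondrially encoded genes, from -0.0594 to 0.00118 for the share of counts in cumulus marker genes and from -0.042 to 0.382 for the share of counts in oocyte marker genes, and from -0.338 to -0.0715 for the spread between libraries. On the log2 scale, signs turned with a label left out for Cyp11a1 (-4.29 to 1.08), Amh (-4.10 to 0.19), Star (-2.76 to 1.03), Hsd3b1 (-2.19 to 2.20), mt-Rnr2 (-1.19 to 0.50) and Gdf9 (-0.00408 to 0.60), in each without Old1_2, among genes called by either fit. List medians also turned without Old1_2 for proteasome (0.0091), DNA and histone methylation (-0.0087), antioxidant (0.05), oocyte marker (-0.0041), cumulus marker (0.20) and other cell marker genes (0.75). With the length and GC trend removed and Old1_2 left out, signs turned for the medians of the subcortical maternal complex (-0.18), meiotic resumption (-0.05), cumulus marker (0.06) and other cell marker genes (0.73), and for Ppp2cb (0.18), mt-Rnr2 (0.25), Ehmt2 (0.0839), Cyp11a1 (1.01), Amh (0.44), Mau2 (-0.35), Bmp15 (-0.0740), Star (0.90) and Hsd3b1 (2.17). With the trend alone Ppp2r5c was -0.18 and the autophagy median -0.07, with edgeR's own expression filter the kinetochore median was -0.02, and with the cumulus covariate mt-Rnr2 was 0.0157 and Vcan 1.54. No paired analysis was possible because old and CR complexes share no numbers and each mouse label lies in 1 group. The shallower old libraries limit genes near 1 CPM.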
